A study of Mus musculus with 9 samples.

Results

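Interferon response genes, the transcripts that cells switch on when an interferon binds its receptor, were examined in the quadriceps muscle of mice that lack the lysosomal enzyme acid alpha-glucosidase. The set was a fixed list of 37 symbols: transcription factors of the pathway, type I interferon effectors, nucleic acid sensors, interferon-gamma GTPases, and genes of the immunoproteasome and of peptide loading. Of these, 36 were among the 13116 genes of the deposited expression table, and Zbp1 is not analysed here. All 36 also passed the filter on low values that left 13089 genes to test. The list was not drawn from measured values of a comparison, but it was chosen with earlier results of these data known.

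Interferons are secreted proteins that warn tissue of infection or damage. Type I interferons act through the kinases Jak1 and Tyk2 on a complex that holds Stat2 and Irf9 and binds the interferon-stimulated response element of target genes, whereas interferon gamma acts through Jak1 and Jak2, and its target genes carry the gamma-activated site. In skeletal muscle this response is best known from inflammatory muscle disease, where fibres as well as invading immune cells make interferon-induced transcripts.

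RNA of 9 male mice was sequenced, 1 library per mouse and 3 mice per group, all 18 months old and injected in a tail vein at 9 months. KO_secGAA mice were Gaa knockouts that had received AAV8-sp7-delta8-hGAAco, an adeno-associated virus vector carrying a secreted form of the human enzyme. KO_PBS mice were Gaa knockouts injected with PBS, and WT_PBS mice were wild type and injected with PBS. Loss of the enzyme lets glycogen build up in lysosomes and is the defect of Pompe disease. The comparisons ask what its loss changed in muscle (KO_PBS against WT_PBS), what the vector changed in knockout muscle (KO_secGAA against KO_PBS), and what difference from wild type was left after the vector (KO_secGAA against WT_PBS). No mice with an empty vector, and no wild-type mice with the vector, are among the samples, so effects of the enzyme and of the vector itself cannot be told apart. The labels do not give the vector's promoter.

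Values are normalized counts: 0.5 was added to the reads of each gene, and the sum was scaled to the size of the library. The libraries held 9299156 to 15957106 reads, so 1 read was worth 0.0652 to 0.0922 normalized counts. Gaa stood at 15.1 to 16.6 normalized counts in KO_secGAA, 14.0 to 17.8 in KO_PBS and 129 to 296 in WT_PBS. The genotype of each of the 9 libraries thus fits its Gaa level. The knockout groups overlapped, so this level cannot check which knockout mice received the vector. The human transgene is not analysed here. Transcripts of 8 muscle fibre genes summed to 119592 to 131692 in KO_secGAA, 99818 to 118737 in KO_PBS and 138641 to 157012 in WT_PBS. The 8 did not move together: between KO_PBS and WT_PBS 3 estimates lay above 0 and 5 below. The interferon response genes were weakly expressed beside these sums. Their median level was 6.03 normalized counts against 12.8 over all genes tested, and 26 of the 36 averaged under 10. The lowest single value was 3 reads of Oas1a in WT_PBS 3 and the highest 848 reads of Ifi27. In whole muscle RNA, a change in the number of cells of a type and a change in the RNA per cell cannot be told apart.

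The regulatory sequence of the genes that the results turn on is shown first. RefSeq promoter windows of GRCm38.p6, 250 bases before to 50 after the gene start, were at hand for 31 of the 37 symbols. The motifs were searched on both strands with overlapping matches counted. GAAANNGAA, the core of the interferon-stimulated response element, was found in the windows of 18 of these 31 genes (58.1%), against 9.76% of 27025 genes in the same table. TTCNNNGAA, the gamma-activated site, was found in 12 of the 31 (38.7%), against 9.55% of all genes. Of the 8 genes with a window that rose in KO_PBS muscle (below), 6 held the first motif (75%), and of the 23 others 12 did (52.2%). The second motif was held by 3 of the 8 (37.5%) and by 9 of the 23 others (39.1%). A match says only that the letters are present.

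The lines below give the 200 bases before the gene start, 5′ to 3′ on the gene's strand, with GAAANNGAA matches of either strand in capitals. They are the 6 genes that rose in KO_PBS muscle and held the motif, and Ifi35, which passed in both comparisons with KO_PBS and did not hold it.

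Isg15 (chr4:156200819-156201018, minus strand): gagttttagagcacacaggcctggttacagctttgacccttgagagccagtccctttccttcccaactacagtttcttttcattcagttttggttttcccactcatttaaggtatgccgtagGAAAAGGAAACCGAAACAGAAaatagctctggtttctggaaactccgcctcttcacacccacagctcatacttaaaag
Rsad2 (chr12:26456453-26456652, minus strand): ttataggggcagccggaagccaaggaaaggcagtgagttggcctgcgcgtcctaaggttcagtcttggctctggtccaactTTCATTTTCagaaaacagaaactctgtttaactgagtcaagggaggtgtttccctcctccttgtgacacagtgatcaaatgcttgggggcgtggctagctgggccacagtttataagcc
Ifih1 (chr2:62646256-62646455, minus strand): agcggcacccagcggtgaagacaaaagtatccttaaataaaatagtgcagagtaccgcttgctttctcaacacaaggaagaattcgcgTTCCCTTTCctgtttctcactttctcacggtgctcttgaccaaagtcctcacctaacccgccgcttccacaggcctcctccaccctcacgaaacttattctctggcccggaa
Irgm1 (chr11:48871421-48871620, minus strand): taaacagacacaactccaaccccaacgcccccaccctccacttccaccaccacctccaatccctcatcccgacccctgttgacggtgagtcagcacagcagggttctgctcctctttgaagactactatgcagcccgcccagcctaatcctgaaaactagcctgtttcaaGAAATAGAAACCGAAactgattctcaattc
Irgm2 (chr11:58214777-58214976, plus strand): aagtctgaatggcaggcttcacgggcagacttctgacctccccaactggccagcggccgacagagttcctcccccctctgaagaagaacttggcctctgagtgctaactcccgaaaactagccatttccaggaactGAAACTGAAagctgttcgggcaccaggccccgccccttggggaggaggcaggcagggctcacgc
Igtp (chr11:58199356-58199555, plus strand): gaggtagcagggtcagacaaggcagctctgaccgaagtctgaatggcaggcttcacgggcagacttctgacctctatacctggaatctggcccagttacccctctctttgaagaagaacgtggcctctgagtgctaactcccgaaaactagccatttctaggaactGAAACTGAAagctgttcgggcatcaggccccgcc
Ifi35 (chr11:101448212-101448411, plus strand): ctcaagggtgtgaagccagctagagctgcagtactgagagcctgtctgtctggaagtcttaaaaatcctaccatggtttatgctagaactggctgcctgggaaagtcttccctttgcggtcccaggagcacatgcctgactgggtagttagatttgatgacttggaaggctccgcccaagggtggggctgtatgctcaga

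Isg15 held a run of 3 overlapping matches between 78 and 58 bases before its start, and Irgm1 a pair between 30 and 16 bases before. In Rsad2 and Ifih1 the match lay further away, with its first letter at 119 and 112 bases before the start; Ifih1 held another just after its start. Irgm2 and Igtp, neighbours on chromosome 11, each held a gamma-activated site shortly before the capitals, beginning at 75 and 45 bases before the start. Their windows also shared an unbroken run of 55 identical bases. In Ifi35 no GAAANNGAA match lay in the window, and its 1 gamma-activated site began 7 bases after the start.

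In knockout muscle without the vector the interferon response genes stood mostly above wild type. In KO_PBS against WT_PBS, 9 of the 36 rose (limma, adjusted p under 0.05) and 27 did not pass, where 10.9% of all genes tested rose and 21.9% changed either way. The 9 were Isg15, Rsad2, Ifi35 and Parp14 among the effectors, the sensor Ifih1, the GTPases Irgm1, Irgm2 and Igtp, and the peptide-loading gene Tapbp. The estimate was above 0 for 34 of the 36 (51% of all genes), with Usp18 and Xaf1 below, and the median difference was 0.55 on the log2 scale, against 0.01 over all genes tested. For 17 members all 3 KO_PBS values lay above all 3 WT_PBS values, or 47.2%, where 20.7% of all genes did so.

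In knockout muscle with the vector the list did not move as one. In KO_secGAA against KO_PBS, 2 of the 36 fell, Ifi35 and Ifih1, and 34 did not pass, where 2.31% of all genes tested fell, 1.37% rose and 3.67% changed either way. The members' median difference was -0.01, against 0.00 over all genes, and 17 estimates were above 0 and 19 below. For 7 members, Isg15, Ifi35, Rsad2, Parp14, Ifih1, Eif2ak2 and Psmb10, every KO_secGAA value lay below every KO_PBS value (19.4%, against 12.3% of all genes). In KO_secGAA against WT_PBS, 2 of the 36 rose, Irgm2 and Igtp, and 34 did not pass, where 1.83% of all genes rose, 1.89% fell and 3.72% changed either way. The median difference was 0.55, against 0.01 over all genes, 34 of 36 estimates lay above 0, and 7 members did not overlap (19.4%, against 13.5% higher among all genes). The first and the second comparison share the KO_PBS libraries, the second and the third the KO_secGAA libraries, and the first and the third the WT_PBS libraries, so their estimates are not independent of each other.

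**Figure D1:**
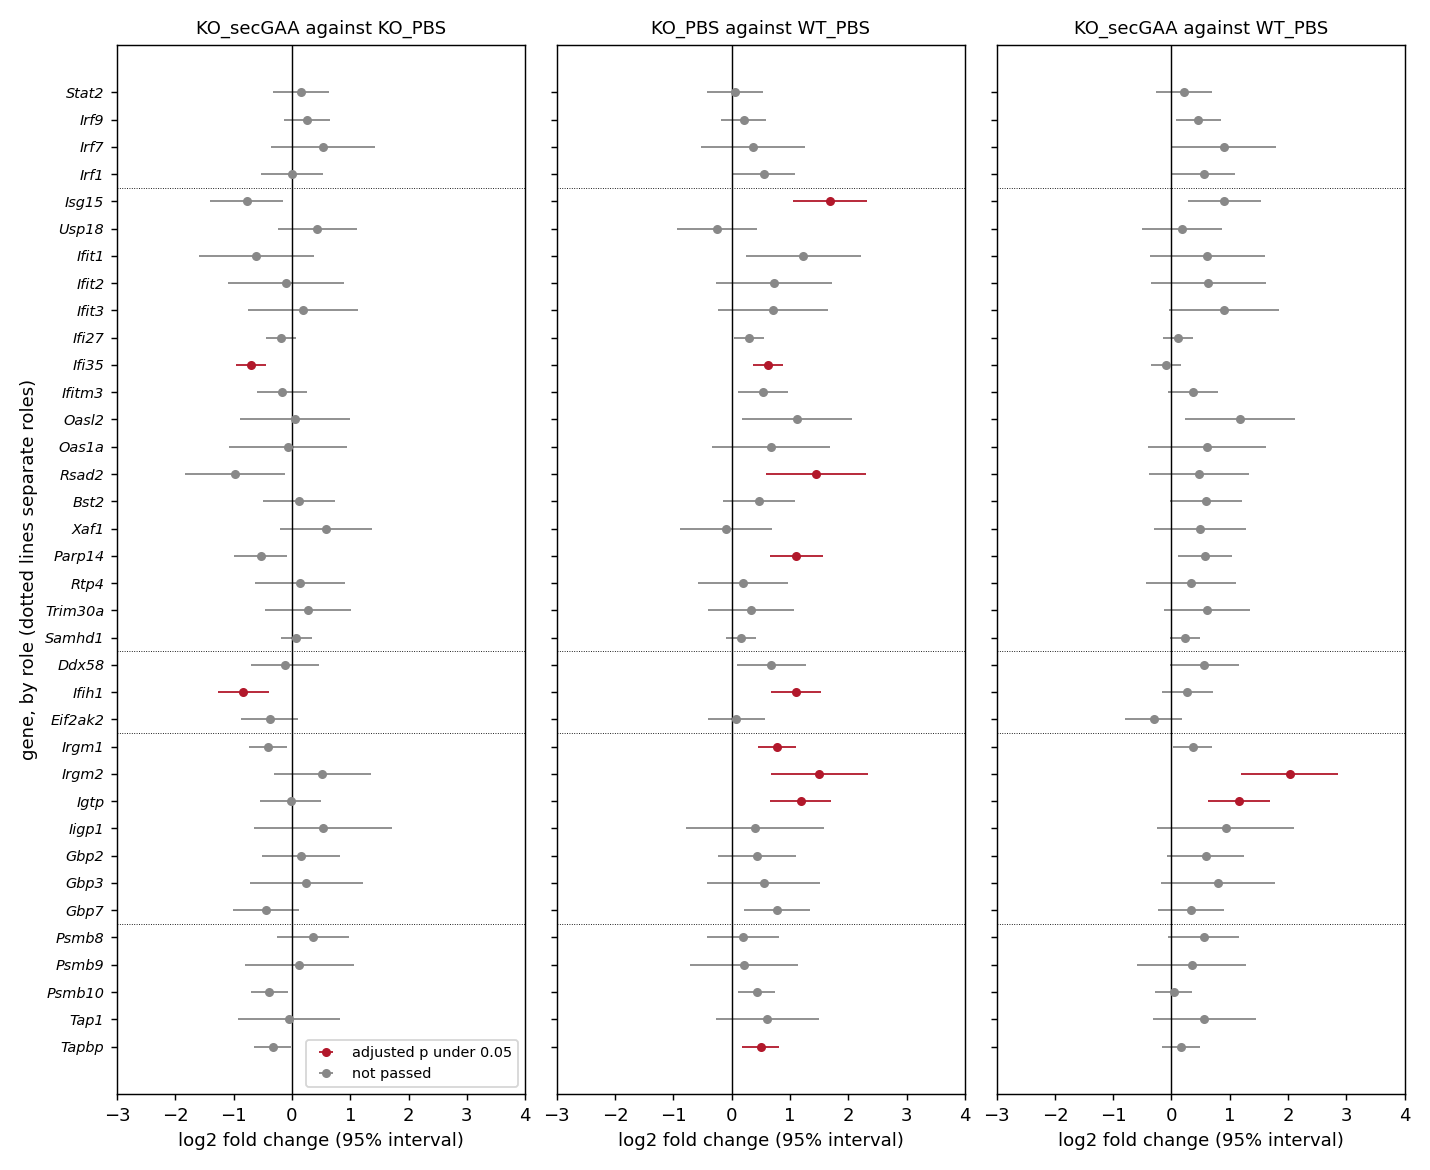
Log2 fold change (log2 of normalized counts + 0.5; horizontal axis) with its 95% interval for each of the 36 genes (rows, dotted lines between roles) in the 3 comparisons. Red marks the 2 genes that fell in KO_secGAA against KO_PBS, the 9 that rose in KO_PBS against WT_PBS and the 2 that rose in KO_secGAA against WT_PBS; in the middle panel 34 of 36 points lie right of 0.

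By group mean, 20 members were highest in KO_secGAA (55.6%), 16 in KO_PBS (44.4%) and 0 in WT_PBS. Over all genes tested the shares were 24.8% in KO_secGAA, 37.4% in KO_PBS and 37.8% in WT_PBS.

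**Figure D2:**
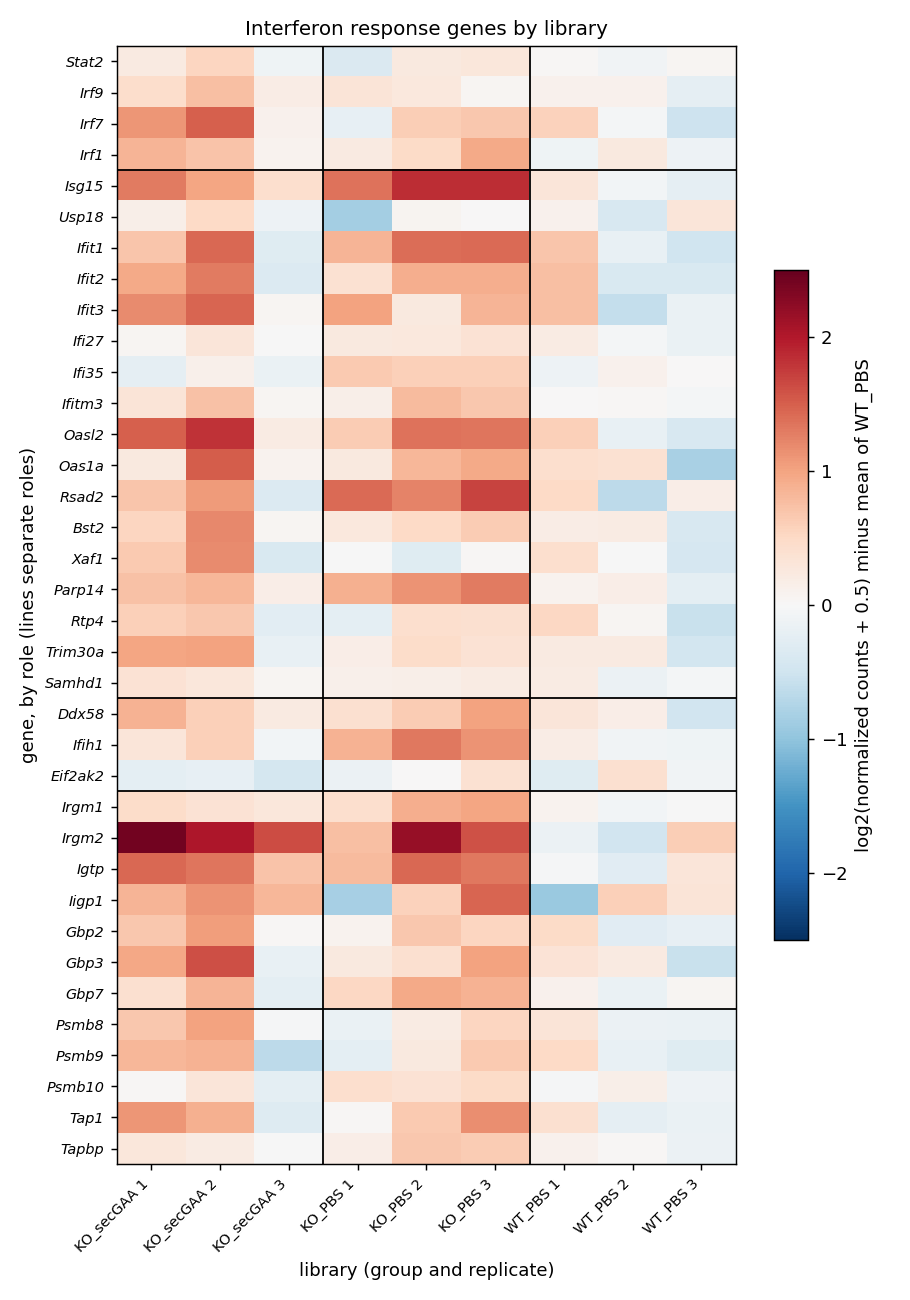
Each of the 36 genes (rows, by role, lines between roles) in each of the 9 libraries (columns), coloured by log2(normalized counts + 0.5) minus the mean of the WT_PBS libraries. Most cells of KO_secGAA 1, KO_secGAA 2 and the KO_PBS libraries are red, and the column of KO_secGAA 3 is paler than its group.

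The 4 transcription factors of the list did not pass in any comparison, with limma, edgeR or DESeq2. In KO_PBS against WT_PBS 1 of them had an unadjusted p under 0.05, in KO_secGAA against KO_PBS 0 and in KO_secGAA against WT_PBS 3. Irf7, which drives the interferon genes themselves, had 6.59, 8.79 and 3.06 normalized counts in KO_secGAA, 2.38, 4.61 and 4.83 in KO_PBS and 4.42, 2.71 and 1.81 in WT_PBS. The groups overlapped, and its difference between KO_secGAA and WT_PBS was 0.90 on the log2 scale (SE 0.40, adjusted p = 0.231 in limma). Irf9, the DNA-binding part of the type I complex, lay at 7.46 to 11.4 in KO_secGAA, 6.76 to 8.25 in KO_PBS and 5.52 to 7.13 in WT_PBS. Every KO_secGAA value was above every WT_PBS value, with a difference of 0.46 (95% interval 0.07 to 0.85) that missed the threshold. Irf1, induced by interferon gamma, lay at 6.59 to 11.5 in KO_secGAA, 7.34 to 12.4 in KO_PBS and 5.59 to 7.41 in WT_PBS, and Stat2, a part of the type I complex, at 4.94 to 7.999, 4.08 to 6.67 and 5.02 to 5.59 in the same order of groups.

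Among the 17 type I interferon effectors, 4 rose in KO_PBS against WT_PBS (23.5%, against 10.9% of all genes). Isg15, a small ubiquitin-like protein that is joined to other proteins, had 2.35, 1.79 and 1.05 normalized counts in KO_secGAA, 2.45, 3.66 and 3.63 in KO_PBS and 0.926, 0.597 and 0.481 in WT_PBS. The 3 groups did not overlap in any pair, and KO_secGAA lay between the other two. Isg15 rose 3.21-fold in KO_PBS against WT_PBS (log2 1.68, SE 0.28, adjusted p = 0.00286 in limma). In KO_secGAA it was -0.78 from KO_PBS (adjusted p = 0.172) and 0.91 from WT_PBS (adjusted p = 0.104). These values rest on 14 to 25 reads a library in KO_secGAA, 37 to 46 in KO_PBS and 6 to 13 in WT_PBS.

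Ifi35, an interferon-induced leucine zipper protein, had 15.2, 19.4 and 15.7 normalized counts in KO_secGAA, 28.1, 27.2 and 27.2 in KO_PBS and 16.2, 19.2 and 18.0 in WT_PBS. The KO_PBS values stood together above those of both other groups, which overlapped. It fell in KO_secGAA against KO_PBS by 0.71 on the log2 scale (SE 0.11, adjusted p = 0.0112 in limma) and rose in KO_PBS against WT_PBS by 0.62 (SE 0.11, adjusted p = 0.00445). Its difference between KO_secGAA and WT_PBS was -0.09, with a 95% interval of -0.34 to 0.17. Both calls held in all 19 alternatives, with adjusted p up to 0.0442 and 0.0188. The antisense gene Gm11626 overlaps Ifi35 over 815 bases, and use of strand in counting is not given in the sources used here.

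Rsad2, the antiviral radical enzyme viperin, had 3.36, 4.502 and 1.41 normalized counts in KO_secGAA, 5.90, 5.16 and 7.22 in KO_PBS and 2.91, 1.02 and 2.18 in WT_PBS. All KO_PBS values lay above the others. It rose 2.72-fold in KO_PBS against WT_PBS (log2 1.44, SE 0.38, adjusted p = 0.024 in limma), and was -0.98 from KO_PBS in KO_secGAA (adjusted p = 0.202). The rise did not pass without any single KO_PBS library, WT_PBS 2 or WT_PBS 3 (adjusted p up to 0.0764). Parp14, an enzyme that adds ADP-ribose to proteins, had 8.43, 9.14 and 5.51 normalized counts in KO_secGAA, 9.49, 11.3 and 12.8 in KO_PBS and 5.24, 5.52 and 4.03 in WT_PBS. The KO_PBS values were again the highest, and KO_secGAA 3 lay at the level of wild type. Parp14 rose 2.16-fold in KO_PBS against WT_PBS (log2 1.11, SE 0.20, adjusted p = 0.00443 in limma) and was -0.53 from KO_PBS in KO_secGAA (adjusted p = 0.192). Gm49730 overlaps Parp14 over 1773 bases on the same strand.

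**Figure D3:**
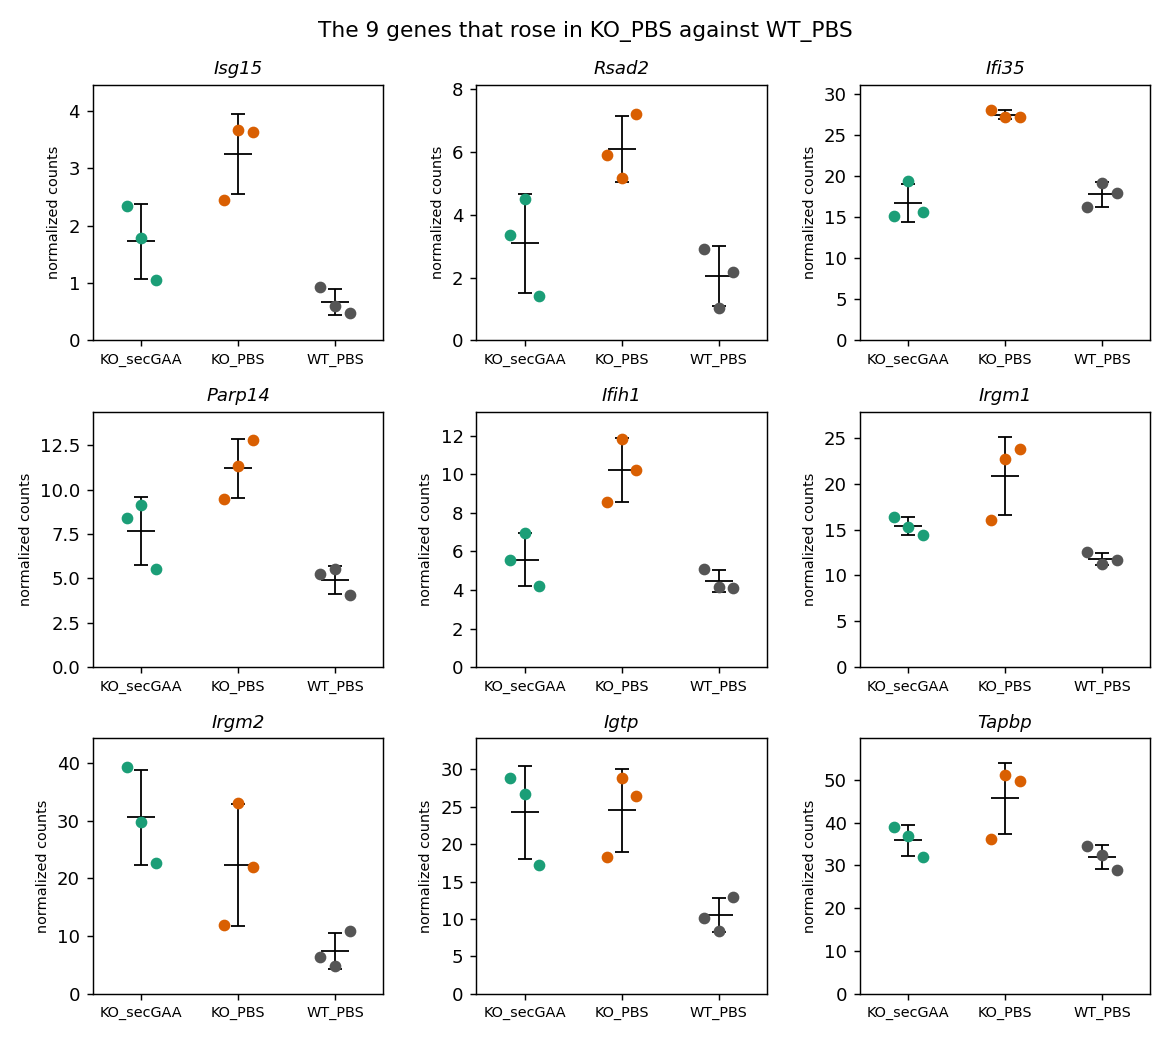
Normalized counts (vertical axes, from 0) of the 9 genes that rose in KO_PBS against WT_PBS, with a point per mouse, a horizontal mark for the mean and bars for the SD (n = 3 per group). Isg15, Rsad2, Ifi35, Parp14 and Ifih1 are lower in every KO_secGAA mouse than in any KO_PBS mouse. Isg15, Irgm1, Irgm2 and Igtp are higher in every KO_secGAA mouse than in any WT_PBS mouse.

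The other 13 effectors did not pass in limma in any of the 3 comparisons. DESeq2 called 6 of the 17 effectors as risen in KO_PBS against WT_PBS, Ifitm3 and Oasl2 besides the 4. Over all genes it called 1451 of 13089 as risen there. The Ifit genes, whose proteins bind foreign RNA, showed the spread between mice: Ifit1 had 2.44, 4.42 and 0.973 normalized counts in KO_secGAA, 2.77, 4.30 and 4.37 in KO_PBS and 2.43, 1.09 and 0.777 in WT_PBS. KO_PBS did not overlap WT_PBS, but KO_secGAA overlapped both, and the difference of KO_PBS from WT_PBS, 1.23 (SE 0.44), had an adjusted p of 0.0748 in limma and passed in 5 of 18 alternatives, the fit of the 2 groups alone and fits without KO_secGAA 2, KO_secGAA 3 or WT_PBS 1 among them. Ifit2 and Ifit3 had estimates of 0.73 and 0.70 in the same comparison. Oasl2, of the oligoadenylate synthetase family, had 4.84, 6.08 and 1.69 normalized counts in KO_secGAA, 2.45, 4.37 and 4.28 in KO_PBS and 2.37, 1.16 and 0.925 in WT_PBS. Its difference between KO_secGAA and WT_PBS, 1.17 (SE 0.42, adjusted p = 0.147 in limma), passed without KO_secGAA 3 and with DESeq2.

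Ifi27, Ifitm3 and Samhd1 were the most abundant of these 13. Ifi27 had 46.3 to 57.1 normalized counts in KO_secGAA, 55.4 to 60.0 in KO_PBS and 41.4 to 53.4 in WT_PBS; Samhd1, which destroys the building blocks of DNA, had 24.5 to 30.6, 25.8 to 27.3 and 21.3 to 27.4 in the same order of groups. For Samhd1 the 95% interval of the difference between KO_PBS and WT_PBS was -0.11 to 0.42. Ifitm3, which blocks virus entry, was at 25.3 to 40.5 in KO_secGAA, 26.9 to 42.5 in KO_PBS and 23.6 to 24.6 in WT_PBS, so both knockout groups lay above wild type in every mouse, with differences from wild type of 0.37 and 0.54 that missed the threshold (adjusted p = 0.0748 for KO_PBS in limma, passing with DESeq2 and without KO_secGAA 2 or KO_PBS 1). Usp18, which removes Isg15 from proteins, had an estimate of -0.26 in KO_PBS against WT_PBS, and Xaf1, a protein that promotes cell death, -0.10, the only members below 0 there. The remaining effectors, Oas1a, Bst2, Rtp4 and Trim30a, had estimates of 0.68, 0.47, 0.20 and 0.33 in that comparison.

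Of the 3 nucleic acid sensors analysed, Ifih1 passed in both comparisons with KO_PBS. It was 1 of 3 to rise in KO_PBS against WT_PBS (10.9% of all genes) and to fall in KO_secGAA against KO_PBS (2.31%). Ifih1 (Mda5), a sensor of long double-stranded RNA, had 5.58, 6.95 and 4.22 normalized counts in KO_secGAA, 8.58, 11.9 and 10.3 in KO_PBS and 5.11, 4.18 and 4.11 in WT_PBS. All KO_PBS values lay above those of both other groups, which overlapped. It fell in KO_secGAA against KO_PBS by 0.83 on the log2 scale (SE 0.19, adjusted p = 0.0471 in limma), and rose 2.15-fold in KO_PBS against WT_PBS (log2 1.11, SE 0.19, adjusted p = 0.00346). The fall did not pass in 10 of 19 alternatives, among them edgeR, a fit of the 2 groups alone, and fits without any single KO_secGAA or KO_PBS library, WT_PBS 2 or WT_PBS 3 (adjusted p up to 0.152). The rise passed in all 19. Ddx58 (Rig-I), the related sensor of short RNA ends, had 5.02, 4.07 and 3.06 in KO_secGAA, 3.49, 4.22 and 5.56 in KO_PBS and 3.26, 2.92 and 1.67 in WT_PBS; the difference of 0.68 between KO_PBS and WT_PBS did not pass (adjusted p = 0.0946). Eif2ak2 (Pkr), a kinase that halts translation on double-stranded RNA, had group means of 3.05, 4.17 and 3.96 in KO_secGAA, KO_PBS and WT_PBS, and its estimate in KO_PBS against WT_PBS was 0.08.

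Some interferon-gamma GTPases coat membranes around pathogens, and some act in autophagy. Of the 7 in the list, Irgm1, Irgm2 and Igtp rose in KO_PBS against WT_PBS (42.9%, against 10.9% of all genes). Irgm2 and Igtp also rose in KO_secGAA against WT_PBS (28.6%, against 1.83% of all genes). Irgm2 had 39.2, 29.8 and 22.7 normalized counts in KO_secGAA, 11.97, 33.0 and 22.0 in KO_PBS and 6.27, 4.88 and 10.8 in WT_PBS. Both knockout groups lay above wild type without overlap, and overlapped each other. It rose 4.07-fold in KO_secGAA (log2 2.02, SE 0.37, adjusted p = 0.0199 in limma) and 2.83-fold in KO_PBS (log2 1.502, SE 0.37, adjusted p = 0.0182), each against WT_PBS. Without KO_secGAA 1, KO_secGAA 2 or WT_PBS 2 the first did not pass (adjusted p up to 0.0748), nor did the second without KO_PBS 2, KO_PBS 3 or WT_PBS 2 (adjusted p up to 0.065).

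Igtp (Irgm3) had 28.9, 26.7 and 17.2 normalized counts in KO_secGAA, 18.3, 28.9 and 26.4 in KO_PBS and 10.1, 8.40 and 12.9 in WT_PBS. Again both knockout groups were above wild type in every mouse. It rose 2.24-fold in KO_secGAA (log2 1.16, SE 0.24, adjusted p = 0.0303 in limma) and 2.27-fold in KO_PBS (log2 1.19, SE 0.24, adjusted p = 0.00653), each against WT_PBS; the call in KO_secGAA did not pass without KO_secGAA 1, KO_secGAA 2 or any single WT_PBS library (adjusted p up to 0.117). KO_secGAA differed from KO_PBS by -0.02 for Igtp, with a 95% interval of -0.55 to 0.50, and by 0.52 for Irgm2, with an interval of -0.31 to 1.35. In the GENCODE M21 annotation of GRCm38, Igtp (chr11:58199556-58207591) and Irgm2 (chr11:58199618-58222782) overlap over 7974 bases on the same strand, so reads could be split between them. The RefSeq start of Irgm2 used for the sequence above lies beyond the end of Igtp and gives no overlap, so this depends on the annotation that was counted, and the level of each is uncertain.

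Irgm1, at chr11:48861968-48871683 and free of that overlap, had 16.4, 15.3 and 14.4 normalized counts in KO_secGAA, 16.02, 22.7 and 23.9 in KO_PBS and 12.5, 11.3 and 11.7 in WT_PBS. KO_secGAA and KO_PBS were each above wild type in every mouse, and KO_PBS 1 stood apart from its group at the level of KO_secGAA. Irgm1 rose 1.71-fold in KO_PBS against WT_PBS (log2 0.78, SE 0.15, adjusted p = 0.00516 in limma). Its difference from WT_PBS in KO_secGAA was 0.36 (adjusted p = 0.19), and from KO_PBS -0.41 (adjusted p = 0.166), which passed without KO_PBS 1. Iigp1, an effector of the same family, had 23.5, 28.5 and 23.2 in KO_secGAA, 7.01, 19.4 and 35.8 in KO_PBS and 6.55, 19.6 and 16.3 in WT_PBS. Its KO_PBS libraries overlapped both other groups and spread more widely than either. The guanylate-binding proteins Gbp2, Gbp3 and Gbp7, which attack vacuole membranes, had estimates of 0.43, 0.55 and 0.78 in KO_PBS against WT_PBS and 0.59, 0.80 and 0.33 in KO_secGAA against WT_PBS; the nearest to the threshold was Gbp7 in KO_PBS (adjusted p = 0.0533 in limma), which passed in 5 of 19 alternatives, DESeq2, the fit of the 2 groups alone and fits without KO_secGAA 2 or KO_secGAA 3 among them.

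Among the 5 genes of the immunoproteasome and peptide loading, which make and load peptides for class I molecules, Tapbp passed. It was 1 of 5 to rise in KO_PBS against WT_PBS (20%, against 10.9% of all genes). Tapbp (tapasin), the bridge between transporter and class I molecule, had 38.9, 36.9 and 31.9 normalized counts in KO_secGAA, 36.1, 51.2 and 49.8 in KO_PBS and 34.6, 32.4 and 29.0 in WT_PBS. KO_PBS 2 and KO_PBS 3 stood above all other libraries, and KO_PBS 1 did not. It rose 1.41-fold in KO_PBS against WT_PBS (log2 0.49, SE 0.14, adjusted p = 0.034 in limma), a call that did not pass in a fit of the 2 groups alone or without KO_PBS 2, KO_PBS 3, WT_PBS 2 or WT_PBS 3 (adjusted p up to 0.122). Zbtb22 overlaps Tapbp over 3422 bases on the same strand. Tap1, the peptide transporter, had 8.71, 7.39 and 2.92 in KO_secGAA, 3.82, 6.19 and 9.06 in KO_PBS and 5.11, 3.13 and 3.29 in WT_PBS, and its groups overlapped.

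The immunoproteasome replaces 3 catalytic subunits of the standard proteasome, Psmb5, Psmb6 and Psmb7, by Psmb8, Psmb9 and Psmb10, so each was set against the subunit it replaces within the same library. The ratios are of normalized counts, not per length, and only compare libraries. Psmb8 stood at 9.84%, 11.3% and 7.54% of Psmb5 in KO_secGAA, 3.61%, 6.23% and 7.04% in KO_PBS and 6.20%, 7.01% and 6.80% in WT_PBS. KO_secGAA lay above both other groups in every mouse, by 0.78 log2 units over KO_PBS and 0.47 over WT_PBS. Psmb10 stood at 5.52%, 6.57% and 4.06% of Psmb7 in KO_secGAA, 6.78%, 7.49% and 8.53% in KO_PBS and 4.73%, 5.31% and 4.18% in WT_PBS. Here KO_PBS lay above both other groups in every mouse, and KO_secGAA differed from it by -0.51 log2 units. Each of these separations, and that of KO_PBS over WT_PBS for Psmb10 (0.67), gave p = 0.1 in a two-sided exact permutation test, the smallest p that 3 against 3 libraries allow (0.225 adjusted over 9 tests), so this test cannot pass the threshold in this design; no other test of the ratios was run. Psmb9 over Psmb6 overlapped in all 3 comparisons, with exact p of 0.7 to 0.8. The 2 ratios thus ordered the groups differently. Psmb10 by itself differed by 0.43 between KO_PBS and WT_PBS and by -0.39 between KO_secGAA and KO_PBS. Each shift was smaller than that of the ratio to Psmb7, and neither passed in limma. Antisense genes overlap Psmb8 over 2139 bases and Psmb10 over 2710, so their reads may include those of the other strand. Both parts of the ratios varied: Psmb8 itself had 11.4, 14.4 and 6.81 normalized counts in KO_secGAA, 6.10, 8.08 and 10.3 in KO_PBS and 8.74, 6.22 and 6.11 in WT_PBS, while Psmb5 had 116, 128 and 90.3 in KO_secGAA, 169, 130 and 147 in KO_PBS and 141, 88.7 and 89.8 in WT_PBS.

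**Figure D4:**
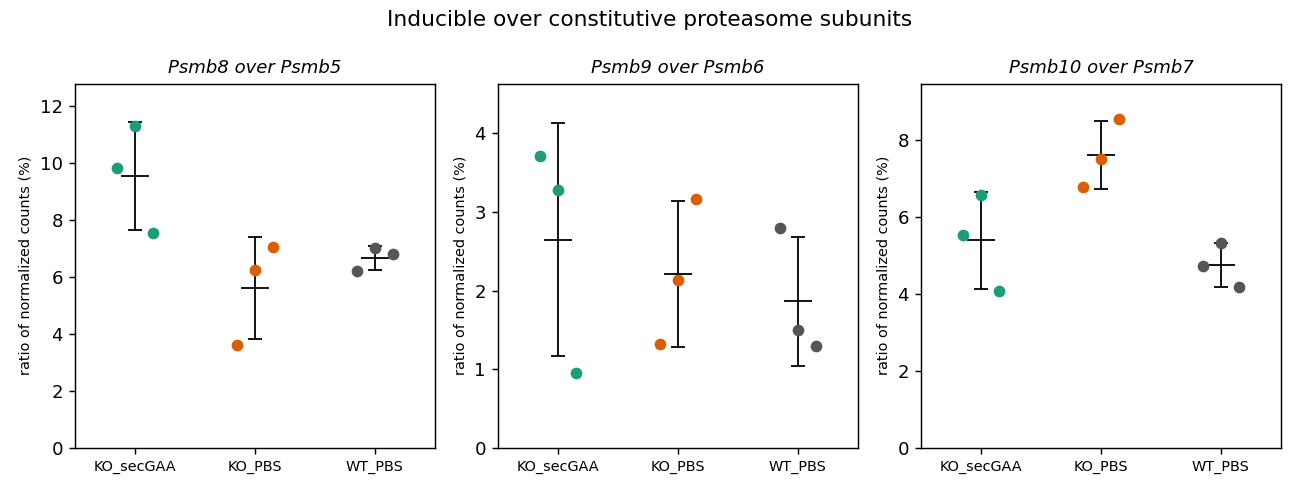
Inducible over constitutive proteasome subunit in each library (ratio of normalized counts, %, vertical axes from 0), with a point per mouse, a mark for the mean and bars for the SD (n = 3 per group). Psmb8 over Psmb5 is highest in KO_secGAA, Psmb10 over Psmb7 in KO_PBS, and Psmb9 over Psmb6 overlaps between all groups.

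In each group the interferon response genes shared 1 library as the lowest for most members. Among the KO_secGAA libraries, KO_secGAA 3 was the lowest for 35 of the 36 genes, with Ifi35 the exception, and KO_secGAA 2 the highest for 27; over all genes tested KO_secGAA 3 was lowest for 35%. Among the KO_PBS libraries, KO_PBS 1 was the lowest for 30 of 36 (34.5% of all genes), the exceptions being Irf9, Ifit3, Ifi35, Rsad2, Xaf1 and Psmb10. Among the WT_PBS libraries, WT_PBS 3 was the lowest for 22 of 36 (30.4% of all genes) and WT_PBS 1 the highest for 23 of 36 (37.2% of all genes). The lowest library was less uniform there: it was WT_PBS 3 for 12 of the 17 effectors, but WT_PBS 2 for 5 of the 7 GTPases. Averaged over the 36 genes and relative to the WT_PBS mean, the log2 level was 0.68, 0.90 and 0.02 in KO_secGAA, 0.29, 0.69 and 0.81 in KO_PBS and 0.22, -0.05 and -0.17 in WT_PBS. On this average KO_secGAA 3 thus lay inside the range of wild type, and KO_PBS 1 just above it. By role, KO_secGAA 3 lay inside that range for the transcription factors, effectors and sensors, and below it for the immunoproteasome and peptide-loading genes. For the 7 GTPases it lay above, at 0.435 against -0.063 to 0.072 in WT_PBS. The median SD of a member within a group, on the log2 scale, was 0.43 in KO_secGAA, 0.31 in KO_PBS and 0.35 in WT_PBS, against 0.18, 0.18 and 0.17 over all genes, which have higher counts.

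Results that rest on KO_secGAA 3 and KO_PBS 1 were recomputed without each. Without KO_secGAA 3 the members' median difference between KO_secGAA and KO_PBS was 0.28 in place of -0.01, and that between KO_secGAA and WT_PBS 0.84 in place of 0.55. Ifi35 was then the 1 member that fell against KO_PBS, and Irgm2, Igtp and Oasl2 rose against WT_PBS. Without KO_PBS 1 the median difference was -0.19 between KO_secGAA and KO_PBS and 0.68 between KO_PBS and WT_PBS, and 9 members rose in the second, Ifitm3 having taken the place of Rsad2. KO_secGAA 3 and KO_PBS 1 were the deepest of their groups (14406655 and 14355201 reads) and had the lowest scaling factors of them (0.963 and 1.07). With no scaling factors KO_secGAA 3 was the lowest for 36 of 36 members and KO_PBS 1 for 32, where over all genes they were the lowest for 45.9% and 46.4%. The part of depth in this order was not tested.

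**Figure D5:**
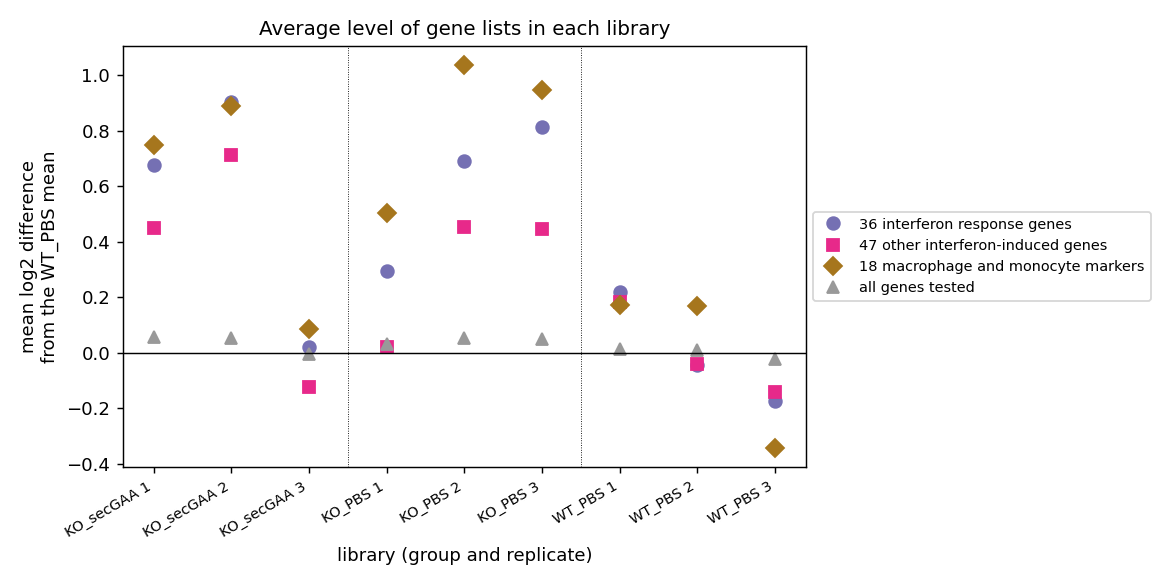
Mean log2 difference from the WT_PBS mean (vertical axis) over 4 gene lists in each of the 9 libraries (horizontal axis). The 36 interferon response genes, 47 other interferon-induced genes and 18 macrophage and monocyte markers are each lowest in KO_secGAA 3, KO_PBS 1 and WT_PBS 3 within their groups, while the average over all genes tested stays near 0.

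Markers of macrophages and monocytes, cells that express many interferon-induced genes, were lowest in the same library of each group. KO_secGAA 3 was the lowest of its group for 16 of the 18 markers, KO_PBS 1 for 16 and WT_PBS 3 for 13. The highest KO_PBS library differed, being KO_PBS 2 for 13 of the 18 markers and KO_PBS 3 for 21 of the 36 interferon response genes. Such an order was not particular to these markers. Of 8 endothelial markers, KO_PBS 1 was the lowest for 6, KO_secGAA 3 for 5 and WT_PBS 3 for 3. Of 8 muscle fibre genes, KO_PBS 1 was the highest for 7 and KO_secGAA 3 for 4, against 34.1% and 33.2% of all genes. The 18 summed to 247.2, 325.8 and 157.4 normalized counts in KO_secGAA, 266.3, 392.0 and 342.7 in KO_PBS and 175.9, 185.1 and 111.9 in WT_PBS. Of the 18, 4 rose in KO_PBS against WT_PBS in limma, Cd68, Lyz2, Mpeg1 and Ccr2 (22.2%, against 10.9% of all genes). With DESeq2 8 rose there, where it called 1451 of all 13089 genes as risen. In KO_secGAA against KO_PBS 1 fell, Cd68 (5.56%, against 2.31% of all genes). In KO_secGAA against WT_PBS 2 rose, Cd68 and Mpeg1 (11.1%, against 1.83% of all genes). The 18 did not all move together. In KO_PBS against WT_PBS 15 estimates lay above 0 and 3 below (lowest -0.305). In KO_secGAA against KO_PBS 4 lay above 0 (highest 0.870) and 14 below, and in KO_secGAA against WT_PBS 17 lay above and 1 below. None of the list is at 0 in any library. Cd68, a lysosomal membrane protein of macrophages, had 5.85, 8.35 and 5.44 in KO_secGAA, 12.2, 14.8 and 13.0 in KO_PBS and 4.42, 2.42 and 2.70 in WT_PBS; its calls in KO_secGAA did not pass without any single KO_secGAA library, among others (adjusted p up to 0.162 in limma). The part of these cells in the interferon response genes was not tested.

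Transcripts of plasma cells split the same libraries further. Igkc, an antibody light chain, had 190, 230 and 3.64 normalized counts in KO_secGAA, 6.30, 4.30 and 76.1 in KO_PBS and 3.33, 1.16 and 0.481 in WT_PBS, and Jchain had 26.5, 29.1 and 1.41 in KO_secGAA, 3.30, 1.14 and 13.6 in KO_PBS and 3.60, 0.527 and 0.703 in WT_PBS. KO_secGAA 1, KO_secGAA 2 and KO_PBS 3 were high and the other 6 libraries low, and neither gene passed in limma. Igkc passed with DESeq2 in KO_secGAA and in KO_PBS, each against WT_PBS, and both genes passed in KO_secGAA against WT_PBS without KO_secGAA 3. The other 4 markers of the B and plasma cell list, the 5 of the neutrophil list, and 13 of the 14 of the T and NK cell list are not analysed here. Cd3e, the T cell marker analysed, had 2.995, 2.40 and 5.87 in KO_secGAA, 1.01, 2.56 and 4.28 in KO_PBS and 4.35, 8.61 and 11.1 in WT_PBS, so it was highest in KO_secGAA 3 within its group. It fell by 1.51 in KO_PBS against WT_PBS (adjusted p = 0.0434 in limma), a call that did not pass in 9 of 19 alternatives, edgeR among them and fits without KO_secGAA 1, KO_secGAA 2, KO_PBS 1, KO_PBS 2, WT_PBS 2 or WT_PBS 3. Endothelial markers, also from cells that answer to interferon, summed to 175.5 to 215.3 in KO_secGAA, 120.9 to 166.9 in KO_PBS and 180.2 to 222.5 in WT_PBS. Of these 8, Esam, Tie1 and Pecam1 fell in KO_PBS against WT_PBS by 0.56, 0.58 and 0.39 (37.5%, against 11% of all genes). None of the 3 passed without scaling factors, nor Tie1 without KO_PBS 1, KO_PBS 2 or WT_PBS 2, nor Pecam1 without KO_PBS 1, KO_PBS 2 or any single WT_PBS library. The 5 fibroblast markers summed to 362.4 to 418.1 in KO_secGAA, 373.1 to 544.3 in KO_PBS and 321.5 to 398.4 in WT_PBS, and KO_PBS 1 was the lowest of its group for 5 of 5. Among them Lum, a collagen-binding proteoglycan, fell by 1.23 in KO_secGAA against KO_PBS and rose by 1.56 in KO_PBS against WT_PBS, in all 19 alternatives. It was the 1 of the 5 that passed in limma in either (20%, where 2.31% of all genes fell and 10.9% rose). The 5 did not all move with it. In KO_secGAA against KO_PBS 4 estimates lay below 0 and 1 above, and in KO_PBS against WT_PBS 3 lay above and 2 below. Itgax, 1 of 3 dendritic cell markers tested, rose by 2.21 in KO_PBS against WT_PBS, in all 18 alternatives in which it was tested. It was the 1 of the 3 that passed (33.3%, against 10.9% of all genes). Over the 3 the median difference was 0.07 and the lowest -0.40, with 2 estimates above 0 and 1 below. The part of all these cell types in the results above was not tested.

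Upstream of the response, 25 genes of a list of 34 interferons, receptors and signalling proteins were tested, and the 7 interferon genes of that list are not analysed here. In KO_PBS against WT_PBS 6 of the 25 rose and 2 fell (10.9% and 11% of all genes), and in KO_secGAA against KO_PBS 3 fell (2.31% of all genes). In KO_secGAA against WT_PBS 1 fell (4%, against 1.89% of all genes), Jak2 by 0.59. That call did not pass in 9 of 19 alternatives, fits without any single KO_secGAA or WT_PBS library, KO_PBS 2 or KO_PBS 3 among them. Ifngr2, the signalling chain of the interferon-gamma receptor, had 64.7, 58.5 and 70.7 normalized counts in KO_secGAA, 109, 117 and 100 in KO_PBS and 69.6, 63.4 and 71.0 in WT_PBS. The KO_PBS values stood apart above both other groups. It fell by 0.75 in KO_secGAA against KO_PBS (SE 0.10, adjusted p = 0.00497 in limma) and rose by 0.67 in KO_PBS against WT_PBS (SE 0.10, adjusted p = 0.00129).

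Tyk2, the kinase of the type I receptor, had 12.7, 11.6 and 12.1 normalized counts in KO_secGAA, 19.3, 20.8 and 19.4 in KO_PBS and 10.4, 10.6 and 10.99 in WT_PBS. It fell by 0.69 in KO_secGAA against KO_PBS (adjusted p = 0.00579) and rose by 0.86 in KO_PBS against WT_PBS (adjusted p = 0.000307, limma). Stat3, which mainly answers to other cytokines, fell by 0.72 and rose by 0.88 in the same comparisons. These 3 genes, unlike the interferon response genes as a list, had KO_secGAA values close together, and their calls held in all alternatives. Jak1 and Jak2 fell in KO_PBS against WT_PBS by 0.48 and 0.87; that of Jak1 did not pass without scaling factors. Socs3, an inhibitor of cytokine signals, rose by 1.63, a call lost without KO_PBS 2 (adjusted p = 0.0505). Ifnar2 and Il10rb, receptor chains, rose by 0.74 and 0.99, calls that did not pass without any single KO_PBS library, among others.

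The receptor chains Ifnar1 and Ifngr1 had differences of 0.51 and 0.33 between KO_PBS and WT_PBS, which did not pass (adjusted p = 0.0929 and 0.142 in limma).

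Of 61 other interferon-induced genes, 47 were tested. In KO_PBS against WT_PBS 4 rose (8.51%, against 10.9% of all genes), and in KO_secGAA against KO_PBS 1 fell (2.13%, against 2.31% of all genes). None passed in KO_secGAA against WT_PBS with limma or edgeR, 1 passed with DESeq2, and 7 had an unadjusted p under 0.05 in limma. The median difference of the 47 between KO_PBS and WT_PBS was 0.20, smaller than the 0.55 of the 36. Cxcl10, a chemokine that draws T cells, had 6.77, 3.72 and 3.28 normalized counts in KO_secGAA, 6.36, 14.5 and 20.0 in KO_PBS and 0.446, 1.30 and 1.22 in WT_PBS. In KO_PBS against WT_PBS it rose by 3.17 log2 units (SE 0.42, adjusted p = 0.000869 in limma), and in KO_secGAA it was 1.77 from WT_PBS (adjusted p = 0.051) and -1.40 from KO_PBS (adjusted p = 0.108). The rise in KO_PBS held in all 19 alternatives. The difference of KO_secGAA from WT_PBS passed in 6 of 19, DESeq2, the fit of the 2 groups alone and fits without KO_PBS 1 or KO_PBS 3 among them. That of KO_secGAA from KO_PBS passed with DESeq2 and without KO_PBS 1. Ifi30, a lysosomal thiol reductase, had 7.97, 9.66 and 5.66 in KO_secGAA, 18.5, 15.6 and 13.8 in KO_PBS and 5.52, 6.01 and 5.81 in WT_PBS. It fell by 1.02 in KO_secGAA against KO_PBS (adjusted p = 0.0194), not passing without KO_PBS 1 or KO_PBS 2, and rose by 1.38 in KO_PBS against WT_PBS (adjusted p = 0.000886, limma). Tor3a rose by 1.11 and Oasl1 by 1.57 in KO_PBS against WT_PBS, the second not without WT_PBS 3.

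Of 8 class I assembly partners, 4 rose in KO_PBS against WT_PBS (10.9% of all genes), the chaperone Canx by 0.79, the proteasome activator Psme2 by 0.42, the transporter subunit Tap2 by 0.82 and the disulfide isomerase Pdia3 by 0.54. Psme1, the partner of Psme2, fell by 0.39 there (12.5% of the list, against 11% of all genes). In KO_secGAA against KO_PBS, Canx fell by 0.48 and Psme2 by 0.43 (25%, against 2.31% of all genes). Of these 7 calls, the rises of Canx and Psme2 held in all 19 alternatives, and each other one did not pass without 3 or more single libraries. Canx is an endoplasmic reticulum chaperone used by many proteins besides class I molecules.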

How the data were processed

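Quadriceps RNA, purified on columns, was made into NEBNext Ultra libraries and read in single-end mode (HiSeq2500), per the labels' protocols. Of software, the submitters' processing notes list RSEM, edgeR, limma, cutadapt and CASAVA, with GRCm38 as the build; for versions and steps the sources used here give nothing. The deposited table holds a normalized signal, called normalized counts per the file headers. Its values came out as whole reads plus 0.5, scaled by a library size with a TMM factor, for 100% of the 118044 values (tolerance 1e-06).

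Because the table holds normalized values, limma 3.58.1 (R 4.3.3) was run on log2(value + 0.5) of all 9 libraries, with group means, no covariate and an empirical Bayes trend, over the 13089 genes that reached 1 in 3 or more libraries. A gene rose or fell where the Benjamini-Hochberg adjusted p over all genes tested was under 0.05; fold changes are on this scale, which understates those of low genes. On the recovered reads edgeR 4.0.16 called 445 genes in KO_secGAA against KO_PBS (limma 481), 2845 in KO_PBS against WT_PBS (limma 2867) and 503 in KO_secGAA against WT_PBS (limma 487). DESeq2 1.42.0, other pseudocounts, filters and scalings, and leaving out each library were the alternatives. The fit was tested on simulated data. Named genes were all members in the table, Gaa, the interferon receptor genes, and up to 6 called genes of each pathway list; single markers were named after their values were seen. Members and lists were chosen with earlier results of these data known. Nothing in the labels ties replicate numbers to litters or days. The result of 1 signalling gene is not reported here.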

Additional observations from a re-analysis of the deposited data

How the results depend on the processing

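Of the 2013 values of single members under alternatives, 1892 kept their direction and their side of the threshold, 31 no longer passed, 31 newly passed, and 59 changed sign without passing either way. In all alternatives in which they were tested, Isg15, Ifi35, Parp14, Ifih1, Irgm1 and Igtp rose in KO_PBS against WT_PBS and Ifi35 fell in KO_secGAA against KO_PBS. With no scaling factors, 959 genes changed in KO_secGAA against KO_PBS (102 up, 857 down), 4984 in KO_PBS against WT_PBS (4466 up, 518 down, against 1430 and 1437) and 1007 in KO_secGAA against WT_PBS (868 up, 139 down). The median of all genes then shifted to -0.14, 0.31 and 0.16, the members' medians were -0.16, 0.83 and 0.70, and 18 members rose in KO_PBS. DESeq2 called 798 genes in KO_secGAA against KO_PBS and 1022 in KO_secGAA against WT_PBS; a fit of the 2 groups alone called 316 in the first. In KO_secGAA against KO_PBS 1 member fell with edgeR and 1 in the fit of the 2 groups. Leaving out 1 library, the genes changed ranged from 161 to 571 in KO_secGAA against KO_PBS, from 1730 (without WT_PBS 3) to 2848 in KO_PBS against WT_PBS, and from 89 (without WT_PBS 3) to 504 in KO_secGAA against WT_PBS; the members changed ranged from 1 to 2, from 6 to 13 and from 0 to 3. The Psmb9 to Psmb6 ratio changed sign without KO_secGAA 1 (-0.182), KO_secGAA 2 (-0.091) or KO_PBS 1 (-0.157) in KO_secGAA against KO_PBS, and without KO_PBS 3 (-0.065) in KO_PBS against WT_PBS. Leaving out 1 library it ranged from -0.182 to 0.667 and from -0.065 to 0.505 in these comparisons. Tnnt3, a muscle fibre marker that fell by 0.57 in KO_PBS against WT_PBS (adjusted p = 0.0441 in limma), stood at 0.213 under quantile normalization (adjusted p = 0.402). Its fall also did not pass without scaling factors or in the fit of the 2 groups alone. Nor did it pass without any single KO_secGAA or KO_PBS library, WT_PBS 1 or WT_PBS 3. The cause of these changes of sign and lost calls was not tested. With a filter of 5 or more, 23 members were tested. Few reads per gene limit the 26 members under 10 normalized counts. No paired analysis was possible because replicate numbers were given in accession order and pair no mice.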
